A study of Mus musculus with 4 samples.

Results

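A set of 44 genes that carry out or control DNA replication and cell division was followed across the intestinal epithelium of mice with and without a microbiota. The genes were chosen by name for their function, in 3 groups: 23 replication genes, 16 genes of mitosis and 5 genes that govern the step from G1 to S phase. A probe set whose platform symbol names 1 gene was found for 43 of the 44, among 18193 genes with such a probe set. Ccnb1, which encodes cyclin B1, has no probe set named here. The 43 genes were read by 95 probe sets, and the brightest probe set of a gene, by its mean log2 intensity, stood for the gene.

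The study compared epithelial cells of the proximal colon and of the ileum from C57/Bl6 mice that were either conventional, labelled wild type, or germ-free. Cells were cut out of tissue sections by laser capture microscopy, about 16000 for each group, pooled from 4 mice. Ages, sexes and housing are not given in the labels. Hematoxylin staining is named in the labels of the germ-free samples only. Each of the 4 groups was 1 Affymetrix array of a pool, so no spread between animals can be had and no difference below has a test or a replicate check. The only error these arrays allow is the disagreement between probe sets of the same gene, given below for each comparison.

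Before a cell copies its DNA, the origin recognition complex, Cdc6 and Cdt1 load the MCM2-7 helicase onto replication origins, and this loading licenses them to fire once. Kinases and the factors Cdc45 and GINS then turn the helicase on, and the clamp PCNA, its loader RFC, the primase-polymerase and the flap nuclease and ligase build the new strands. After replication, cyclin A2 and B with CDK1 drive entry into mitosis, the spindle checkpoint holds it until chromosomes are attached, and CDC20 with the anaphase-promoting complex lets the cell leave it. In the intestine these steps take place in the crypts, where progenitors divide, while the differentiated cells above them have left the cycle. In promoters, genes of G1 and S phase are known for E2F sites, and genes of G2 and mitosis for the cell cycle homology region (CHR) with CCAAT boxes bound by NF-Y.

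Promoter windows of 6 members with large differences below, picked with their values in view, are shown to make that background visible. Each is the 250 bases before a RefSeq transcription start on the mouse build GRCm38.p6, written 5′ to 3′ along the gene's strand. Capitals mark matches, on either strand, to the E2F-type letters TTTGGCGC, TTTCCCGC, TTTCGCGC or TTTGCCGC, to the CHR letters TTTGAA and to the NF-Y box CCAAT. The 3 replication genes are Mcm6 (chr1:128359706-128359955, minus strand), a helicase subunit, Cdc6 (chr11:98907901-98908150, plus strand), a helicase loader, and Uhrf1 (chr17:56304063-56304312, plus strand, the downstream of its listed starts), which carries DNA methylation over to the new strand. The 3 mitosis genes are Cdk1 (chr10:69352913-69353162, minus strand), the mitotic kinase, Ccnb2 (chr9:70421555-70421804, minus strand), a B-type cyclin, and Cdc20 (chr4:118437344-118437593, minus strand), the activator of the anaphase-promoting complex.
Mcm6: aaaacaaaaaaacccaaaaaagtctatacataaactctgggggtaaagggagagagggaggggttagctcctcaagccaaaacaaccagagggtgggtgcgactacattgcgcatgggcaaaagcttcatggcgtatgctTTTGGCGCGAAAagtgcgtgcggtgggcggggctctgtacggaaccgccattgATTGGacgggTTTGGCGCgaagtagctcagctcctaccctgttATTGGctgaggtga
Cdc6: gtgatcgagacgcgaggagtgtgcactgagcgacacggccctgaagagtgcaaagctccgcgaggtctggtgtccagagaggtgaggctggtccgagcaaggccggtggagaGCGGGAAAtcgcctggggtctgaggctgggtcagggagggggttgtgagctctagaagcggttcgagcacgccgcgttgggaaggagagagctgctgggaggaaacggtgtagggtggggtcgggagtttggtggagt
Uhrf1: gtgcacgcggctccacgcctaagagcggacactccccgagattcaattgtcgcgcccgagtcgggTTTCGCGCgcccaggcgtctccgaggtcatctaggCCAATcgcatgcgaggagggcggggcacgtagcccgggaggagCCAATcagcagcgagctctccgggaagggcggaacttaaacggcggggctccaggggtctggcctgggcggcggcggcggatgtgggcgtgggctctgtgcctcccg
Cdk1: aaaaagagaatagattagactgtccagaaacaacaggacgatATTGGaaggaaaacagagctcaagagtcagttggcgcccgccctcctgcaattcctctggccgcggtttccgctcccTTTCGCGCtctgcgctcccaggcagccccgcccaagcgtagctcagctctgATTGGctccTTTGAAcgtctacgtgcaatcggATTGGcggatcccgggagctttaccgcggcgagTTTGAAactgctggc
Ccnb2: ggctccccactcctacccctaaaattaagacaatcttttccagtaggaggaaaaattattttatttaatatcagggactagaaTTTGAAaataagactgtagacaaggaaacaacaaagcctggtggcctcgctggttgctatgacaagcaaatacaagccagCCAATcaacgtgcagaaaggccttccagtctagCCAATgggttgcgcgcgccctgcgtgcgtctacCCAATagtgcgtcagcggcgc
Cdc20: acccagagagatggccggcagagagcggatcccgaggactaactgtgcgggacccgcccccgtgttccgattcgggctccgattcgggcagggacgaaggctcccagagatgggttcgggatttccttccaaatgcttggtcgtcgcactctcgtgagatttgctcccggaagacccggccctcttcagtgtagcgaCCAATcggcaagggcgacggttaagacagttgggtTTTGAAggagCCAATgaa

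E2F-type letters were in the windows of 7 of the 20 replication genes that the promoter table lists (35%), of 1 of 14 mitosis genes (7.14%) and of 1 of 4 G1 to S genes, against 2.16% of 27025 genes in the table. They lie in the Mcm6, Cdc6 and Uhrf1 windows above, and Mcm6 holds a pair of them on opposite strands that overlap. CHR and CCAAT letters in the same window were found in 6 of 14 mitosis genes (42.9%) and in 2 of 20 replication genes (10%), against 6.45% of all genes. Among the windows shown, Cdk1, Ccnb2 and Cdc20 hold both, and Cdk1 also holds an E2F-type match. CHR letters by themselves were in 18.3% of all genes, 15% of replication genes and 42.9% of mitosis genes. CCAAT on either strand was common, at 37.5% of all genes, 65% of replication genes and 78.6% of mitosis genes. These matches describe letters in a fixed window and were not tested as sites.

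In what follows, the values of a gene are quantile-normalized intensities on a linear scale, and come in a fixed order: the colon first, wild type before germ-free, and the ileum after it in the same way. Intensities at or below the pooled median of the 4 arrays, 62.4, were taken as a floor. For a comparison, a gene was called measured when 1 or both of its arrays exceeded this floor, and a difference against an array at the floor is a lower limit, written "at least". Of the 43 genes, 38 were above the floor on at least 1 array and 25 on all 4. By array, 29 were above it in colon wild type, 32 in colon germ-free, 34 in ileum wild type and 34 in ileum germ-free. By their brightest probe set, the remaining 5 were below it on every array: Rfc3 of the clamp loader, Pola1 of the primase-polymerase, Tyms (thymidylate synthase), the transcription factor E2f1 and the checkpoint kinase gene Bub1b. Another probe set of Bub1b read 9.38, 66.9, 69.3 and 51.8, just above the floor in germ-free colon and wild-type ileum.

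The epithelial origin of the captured cells was borne out by all 8 epithelial markers, which were above the floor on every array. Markers of other cells varied between the groups: the summed intensity of 9 B and plasma cell markers was 7309, 1402, 14219 and 3754, and that of 11 T and intraepithelial lymphocyte markers was 1339, 885, 2019 and 1317, with Cd3d, Cd3e, Cd3g, Cd8b1, Cd2 and Cd7 below the floor throughout. For 12 fibroblast and smooth muscle markers it was 4414, 3901, 6731 and 4254. Sums of 8 endothelial markers were 754, 344, 530 and 542, and those of 12 myeloid markers 2617, 2352, 4174 and 3450. Signal over the 5' end relative to the 3' end, a measure of RNA integrity and amplification, was lower in the germ-free arrays. For Gapdh its log2 difference, germ-free minus wild type, was -0.48 in colon and -1.10 in ileum, and for Actb it was -0.12 and -1.20. The regions differed too. The log2 ratio was -3.61, -4.09, -2.98 and -4.08 for Gapdh and -3.38, -3.50, -1.91 and -3.12 for Actb, highest in wild-type ileum. The part of these differences in the results below was not tested.

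**Figure D1:**
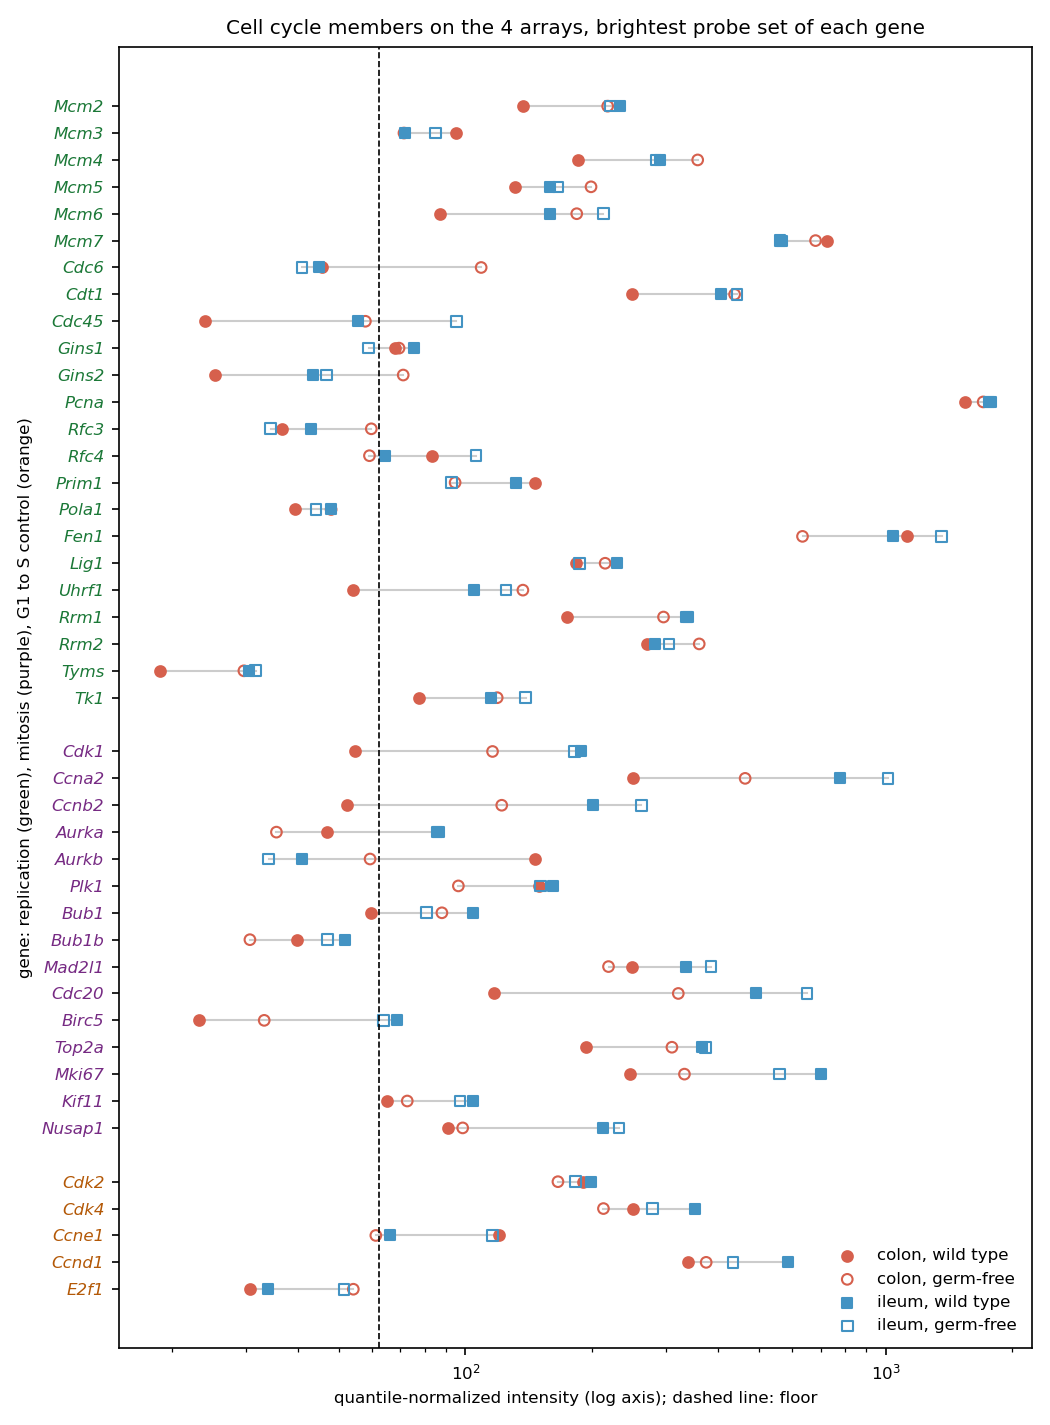
Intensity of the brightest probe set of each of the 43 genes on the 4 arrays (x axis, log scale), with replication genes on top, mitosis genes in the middle and G1 to S genes at the bottom; each mark is 1 array and the dashed line is the floor of 62.4. Colon wild type is the lowest array for 24 of the 38 genes above the floor on at least 1 array, and ileum wild type is the lowest for 0.

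Across the arrays, the colon of wild-type mice stood out as the low one. It had the lowest value for 24 of the 38 genes above the floor somewhere (63.2%), whereas it was the lowest array for 26.3% of all 12431 such genes. Colon germ-free was the lowest for 9 genes (30.1% of all genes), ileum germ-free for 5 (21.7%) and ileum wild type for 0 (21.9%). Replication and mitosis genes were alike in this, with colon wild type lowest for 13 of 20 and 10 of 14. They parted over the highest array: 13 of 14 mitosis genes had their highest value in the ileum, 6 on the wild-type and 7 on the germ-free array. The 20 replication genes were spread as 3, 6, 4 and 7 over the arrays in the order given above, or 15%, 30%, 20% and 35%. All 12431 genes were spread as 26.5%, 25.5%, 20.9% and 27.1%.

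In the colon, replication and mitosis genes were on the whole higher in germ-free than in wild-type epithelium, and the few G1 to S genes had no steady direction. With no floor applied, so that every one of the 43 genes counts, 30 were higher in germ-free colon, against 48.1% of all 18193 genes, and their median log2 difference was 0.43 against -0.02 for all genes. By group, 18 of 23 replication genes were higher with a median of 0.62, 10 of 15 mitosis genes with a median of 0.43, and 2 of 5 G1 to S genes with a median of -0.19. With the floor, 35 were measured and 24 of them were higher, where 48.6% of all measured genes were. At least 1.5-fold higher were 14 of the 35, against 6.19% of all measured genes, and at least 1.5-fold lower were 5, against 10.8%. At least 2-fold higher were 3, namely Cdc20, Mcm6 and Uhrf1, against 1.29%, and at least 2-fold lower was 1, Aurkb, against 3.23%. Of these, Cdc20 and Mcm6 were at -0.41 and 0.61 log2 by their brightest probe sets not of the kind that can match several transcripts. From the 2 brightest probe sets of each of 4359 genes, the colon difference of a single probe set had an SD of 0.36 log2. The 2 probe sets of a gene differ from each other by more than that. Single differences of that size are thus within the error of a probe set. Of the 35 measured members, 28 were higher with the values as deposited and 20 with median scaling. With the second brightest probe set, which left 5 mitosis genes, their colon median was 0.10. That median is a lower limit, the value of Bub1b, whose probe set read 9.38 in wild-type and 66.9 in germ-free colon. The values of Ccna2 and Kif11 among them are lower limits too.

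Of the 10 measured genes of helicase loading and activation, the largest list, 8 were higher in germ-free colon, against 48.6% of all measured genes. At least 1.5-fold higher were 6, against 6.19%, and the median log2 difference was 0.64. Mcm6 read 87.1, 184, 159 and 213, which is 2.12-fold higher in germ-free than in wild-type colon, with a log2 difference of 0.61 by its second probe set. Its wild-type colon value was the lowest of the 4 and the germ-free colon lay between both ileum arrays. Mcm4, a further subunit of the same ring, read 185, 357, 291 and 284, a log2 difference of 0.94 in colon. Mcm2 read 137, 218, 233 and 221, and Mcm5 read 131, 199, 159 and 166, with colon differences of 0.67 and 0.60. In these 4 helicase genes the colon of wild-type mice was below every other array by the brightest probe sets. All of those are of a type that can match several transcripts. The other probe set of Mcm2 was below the floor on both colon arrays, at 42.8 and 41.1. A weak probe set of Mcm5 read 50.9, 68.9, 27.1 and 32.2. The remaining probe sets of Mcm4, Mcm5 and Mcm6 were lowest in wild-type colon too.

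The other helicase subunits did not share that pattern. Mcm3 read 94.9, 71.4, 71.7 and 84.8, which is 0.41 log2 lower in germ-free colon by its brightest probe set, although 2 of its other probe sets were 0.44 and at least 0.44 higher. Mcm7 read 726, 681, 567 and 560 and differed by -0.09. Cdt1, which loads the helicase together with Cdc6, read 249, 437, 406 and 443, a colon difference of 0.81. Cdc6 read 45.5, 109, 44.8 and 40.8 and was above the floor only in germ-free colon, at least 1.75-fold above wild type. Cdc45, an activator of the helicase, read 24, 57.8, 55.4 and 95.2 by its brightest probe set, above the floor in germ-free ileum alone, but 37.1, 65.5, 46.9 and 30.1 by the other, above it in germ-free colon alone. Of the GINS genes, which bind the helicase with Cdc45, Gins2 read 25.4, 71.1, 43.4 and 46.7 and Gins1 read 68.1, 69.5, 75.4 and 58.8. Gins2 was thus above the floor only in germ-free colon, while Gins1 stayed near the floor on all arrays.

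Genes of strand synthesis went both ways in colon, with 3 of 6 measured genes higher (48.6% of all measured genes) and a median log2 difference of -0.14. Uhrf1 read 53.9, 137, 105 and 125 and was at least 2.19-fold higher in germ-free colon, since its wild-type value was under the floor. Pcna, the sliding clamp, was steady at 1542, 1706, 1763 and 1776, and Lig1, the replicative DNA ligase, at 183, 215, 229 and 187. Fen1, the nuclease that trims Okazaki fragments, went the other way at 1126, 634, 1042 and 1358, which is 1.77-fold lower in germ-free colon. That rests on a probe set of a type that can match several transcripts. The other probe set of Fen1 read 23, 21.6, 35.8 and 25.1, below the floor on all arrays. Prim1, the catalytic primase subunit, read 146, 94.5, 132 and 92.5, and was lower in germ-free epithelium of both regions, with log2 differences of -0.63 in colon and -0.52 in ileum. Its second measured probe set read 85.9, 102, 118 and 103 and was 0.25 higher in colon. Rfc4 of the clamp loader read 83.4, 59.1, 64.3 and 106 and was lower in germ-free colon by at least 0.42 log2.

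The genes that supply deoxynucleotides were all 3 higher in germ-free colon where measured (48.6% of all measured genes), with a median log2 difference of 0.62. Rrm1, the large subunit of ribonucleotide reductase, read 174, 296, 339 and 336, a colon difference of 0.77. Tk1, thymidine kinase, read 77.6, 119, 115 and 139, and Rrm2, the small reductase subunit, read 271, 360, 282 and 305, with differences of 0.62 and 0.41. For each of them, wild-type colon was the lowest array.

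The pooled epithelium cannot show whether such differences come from more cells in cycle or from more RNA in each cycling cell. These cannot be told apart in bulk samples. Crypt stem and progenitor markers, of which 8 of 13 were above the floor on each colon array, had summed intensities of 19951 and 20371 in wild-type and germ-free colon and a median log2 difference of 0.04. Those sums are mostly Prom1 and Slc12a2, and the 8 markers ran from -0.37 to 1.01, with 5 higher. Lgr5, the receptor that marks crypt base stem cells, was below the floor on all arrays. Of 9 measured absorptive enterocyte markers, 7 were higher in germ-free colon, with a median of 0.38 and a range from -0.85 to at least 1.97. Of 10 mature colonocyte markers, 2 were higher, with a median of -0.18 and a range from -2.84 to 0.11. Of all measured genes, 48.6% were higher. The most distant were Apoa1, at least 3.93-fold higher, and Aqp8, 7.14-fold lower. The part of these markers' differences in the results was not tested.

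Among the mitosis genes of germ-free colon, 9 of 12 measured were higher, and 5 of them at least 1.5-fold, against 48.6% and 6.19% of all measured genes. Cdk1 read 54.5, 116, 188 and 182 and was at least 1.86-fold higher in germ-free than in wild-type colon. Its partner cyclins went with it. Ccna2 read 251, 463, 778 and 1013, a 1.84-fold difference, and Ccnb2 read 52.2, 122, 201 and 262, at least 1.96-fold. The second probe set of Ccna2 read 43.3, 64.1, 77.2 and 64.4, at least 0.04 log2 higher in germ-free colon. In all 3 genes the order of the arrays was wild-type colon, then germ-free colon, then the ileum arrays. Cdc20 read 117, 321, 492 and 650, which is 2.75-fold higher in germ-free colon and the largest value among the 35 measured members, some of which are lower limits. That value rests on its brightest probe set, of a type that can match several transcripts. The probe set of Cdc20 without that limit read 162, 122, 202 and 203, a colon difference of -0.41, so the direction for Cdc20 depends on the probe set.

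Chromosome and spindle genes were all 4 higher in germ-free colon (48.6% of all measured genes were), by less. Top2a, which untangles replicated chromosomes, read 194, 310, 366 and 372, a colon difference of 0.68. Mki67, the gene of the proliferation antigen Ki-67, read 246, 332, 700 and 558, a difference of 0.43. Kif11, a spindle motor, and Nusap1, a spindle-associated protein, differed by 0.16 and 0.11 in colon. Of the checkpoint genes, Bub1 read 59.7, 87.9, 104 and 80.7, at least 0.49 higher, and Mad2l1 read 249, 219, 335 and 384, a difference of -0.18.

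The mitotic kinase genes Aurkb and Plk1 did not follow Cdk1 in colon. Aurkb, the kinase of the chromosomal passenger complex, read 146, 59.3, 40.8 and 34, with the wild-type colon above the floor and all other arrays below it. It was at least 2.34-fold lower in germ-free colon, against the direction of the group. Its other probe set read 30.2, 37.3, 42.3 and 62.5 and was above the floor in germ-free ileum only. Both probe sets of Aurkb are of a type that can match several transcripts. Plk1, polo-like kinase 1, read 150, 96.2, 162 and 151, a colon difference of -0.64 in which germ-free colon was the low array. Aurka, the centrosome kinase, read 46.9, 35.5, 85.5 and 86.2, and Birc5, which encodes survivin, read 23.2, 33.2, 68.7 and 63.8. Both were below the floor in both colon groups and above it in both ileum groups.

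The G1 to S genes showed little difference in colon apart from Ccne1, with a median of -0.21 over 4 measured genes that changed sign in 4 of 8 alternatives. It was 0.01 with the values as deposited, 0.15 for 1 gene above a higher floor, 0.15 for 3 genes without multi-match probe sets and 0.48 for 2 genes by their second probe set. Cyclin E1, encoded by Ccne1, activates CDK2 at the start of S phase. The intensities of Ccne1 were 120, 61.2, 66.3 and 116, at least 1.92-fold lower in germ-free than in wild-type colon and 1.75-fold higher in germ-free than in wild-type ileum. Cdk2 itself read 190, 166, 199 and 183. Cdk4 read 251, 213, 351 and 279 and its partner cyclin gene Ccnd1 read 338, 374, 586 and 433, with colon differences of -0.24 and 0.15. The other probe sets of Ccnd1 were further up in germ-free colon, by 0.71 and at least 1.27.

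**Figure D2:**
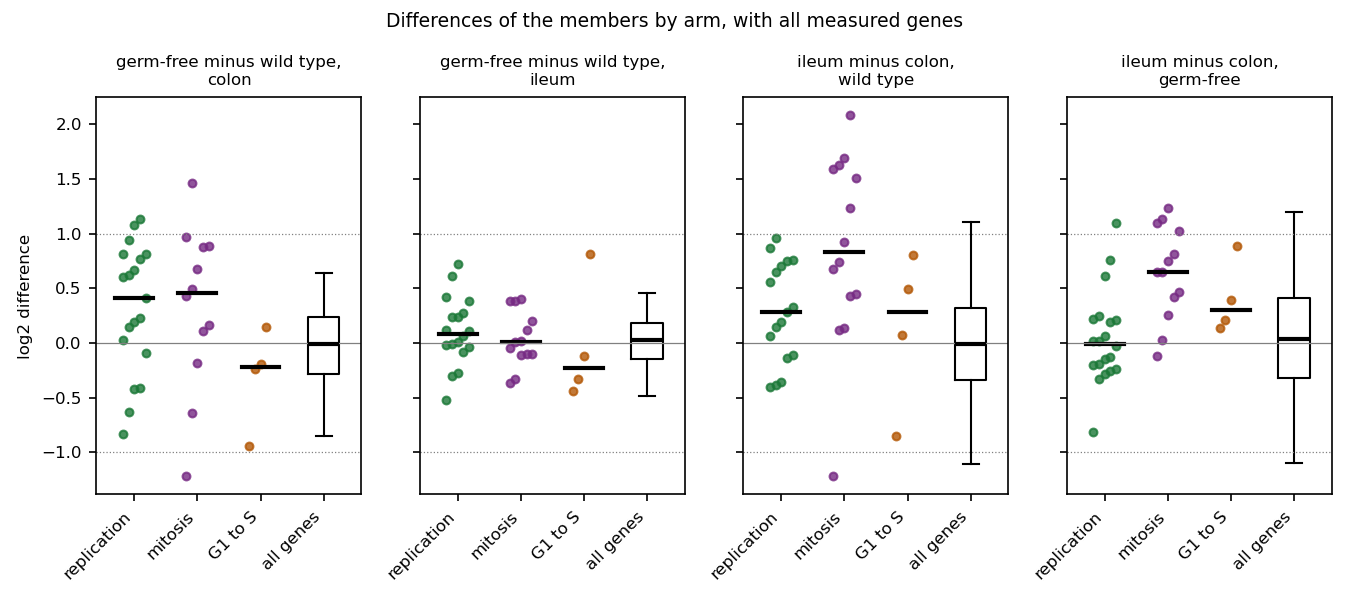
Log2 differences of the measured genes in the 4 comparisons, by group (replication, mitosis, G1 to S), with each gene a point and the group's median a bar; differences against the floor are drawn at their lower limit. The box on the right of each panel spans the quartiles of all measured genes with its median as a line, and the whiskers reach from the 5th to the 95th percentile. In colon the medians are 0.41 for replication and 0.46 for mitosis, and in ileum they are 0.09 and 0.01.

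In the ileum, the same genes did not differ as a group between germ-free and wild-type epithelium. With no floor, 22 of 43 were higher in germ-free ileum, against 53.1% of all genes, with a median log2 difference of 0.01 against 0.02. With the floor, 19 of 35 measured genes were higher (54.8% of all measured genes), 3 were at least 1.5-fold higher (2.4%) and 0 were at least 1.5-fold lower (3.17%). At least 2-fold higher or lower were 0 of the 35, where 0.23% and 0.698% of all measured genes were. The 13 measured mitosis genes ran from -0.37 to 0.40. The 18 measured replication genes ran from -0.52 for Prim1 to 0.72 for Rfc4. The 3 genes at least 1.5-fold higher were Ccne1, Rfc4 and Cdc45, the last by at least 0.61. The SD of a single probe set, found as for colon, was 0.26 log2 in this comparison, over 4394 genes.

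By their brightest probe sets, most helicase genes were close to equal in the ileum: the differences were -0.08 for Mcm2, -0.04 for Mcm4, 0.06 for Mcm5, -0.02 for Mcm7 and 0.12 for Cdt1. A second probe set of Cdt1 was at least 0.57 lower in germ-free ileum, at 92.9 and 55.6 on the ileum arrays. Mcm6 was 0.42 higher by its brightest probe set and 0.44 lower by its second, which read 66.6, 101, 133 and 98.1. Rrm1, Pcna, Cdk1 and Top2a differed by -0.01, 0.01, -0.05 and 0.02. Ccna2, Ccnb2 and Cdc20 were higher in germ-free ileum by 0.38, 0.38 and 0.40, though the second brightest probe sets of Ccna2 and Cdc20 gave -0.26 and 0.00, while Mki67 and Bub1 stood at -0.33 and -0.37.

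**Figure D3:**
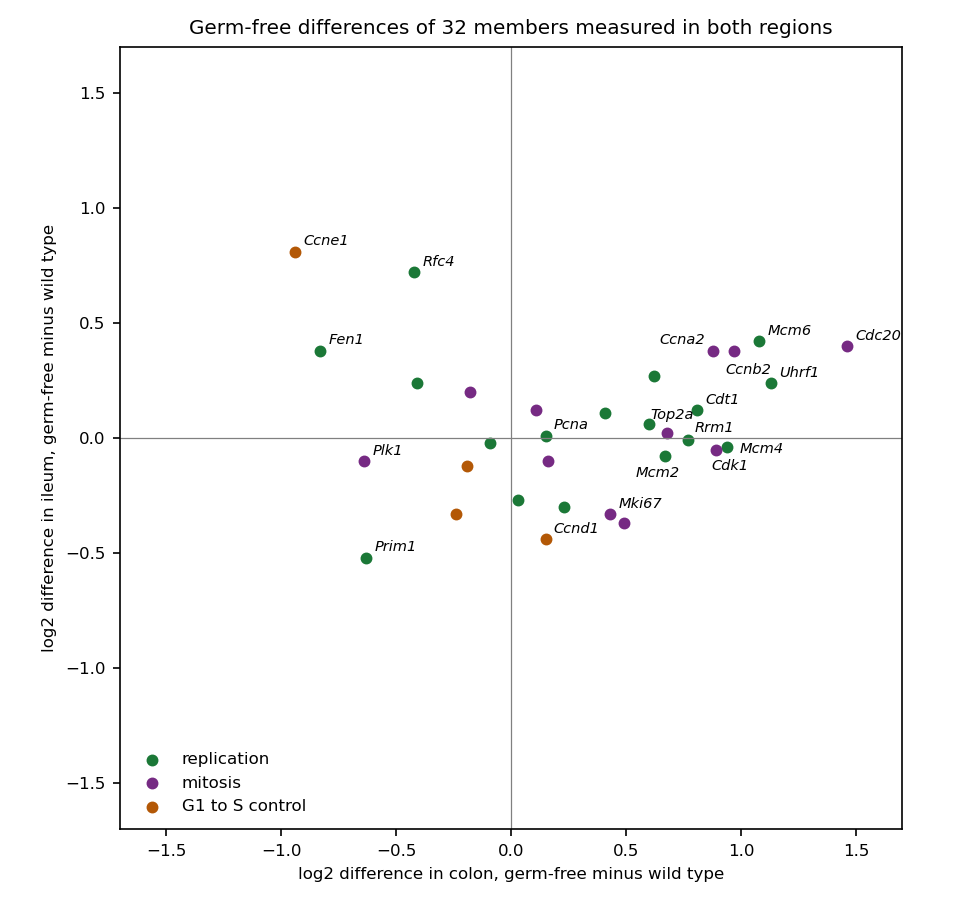
Germ-free minus wild-type log2 difference in ileum (y axis) against that in colon (x axis) for the 32 genes measured in both regions, coloured by group; differences against the floor are drawn at their lower limit. Most points lie right of 0 and close to 0 on the y axis, while Ccne1, Rfc4 and Fen1 lie at the upper left.

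Taking the colon difference minus the ileum difference gene by gene, 22 of 32 genes measured in both regions were above 0, against 48.6% of 11065 genes. The median was 0.42, against -0.02 over all genes; it was 0.34 for replication, 0.59 for mitosis and 0.02 for G1 to S genes. Mcm4 stood at 0.98 and Rrm1 at 0.78, and Cdk1, Uhrf1 and Bub1 at no less than 0.94, 0.89 and 0.87, since their wild-type colon was under the floor. On the other side were Fen1 at -1.21, and Ccne1 and Rfc4 at -1.75 and -1.13 or lower, their germ-free colon being under the floor. These 3 were lower in germ-free colon and higher in germ-free ileum by their brightest probe sets. Those of Fen1 and Ccne1 are of a type that can match several transcripts. The second probe set of Rfc4 was higher in both regions, by at least 0.18 in colon and by 0.32 in ileum. An SD of 0.44 for this quantity comes from combining those of the colon and ileum differences, 0.36 and 0.26, as if independent. It was not measured on the probe sets of each gene. With 1 array per group, the dependence on region was not tested.

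Between the regions, mitosis genes were higher in ileum than in colon, by their brightest probe sets more than replication genes were. The regional comparisons share arrays with the germ-free comparisons, so they restate the same 4 values of a gene from another side. Wild-type ileum was also the array with the highest signal at the 5' end relative to the 3' end. The part of this in the regional differences was not tested. In wild-type mice, with no floor, 35 of 43 genes were higher in ileum, against 49.2% of all genes. That count was made of 14 of 15 mitosis genes with a median log2 difference of 0.92, 17 of 23 replication genes with a median of 0.29 and 4 of 5 G1 to S genes with a median of 0.14. With the floor, 28 of 35 measured genes were higher (49.2% of all measured genes), 16 at least 1.5-fold (13.6%) and 6 at least 2-fold (6.04%). At least 1.5-fold lower were 2 (13.8%), and at least 2-fold lower was 1 (5.93%). All 6 that were at least 2-fold higher are mitosis genes, and 0 of the 17 measured replication genes were. The SD of a single probe set was 0.36 log2. With the second brightest probe set the medians were 0.31 for 5 mitosis genes and 0.30 for 8 replication genes. Lower limits are among both: Bub1b, Ccna2 and Kif11 of mitosis, and Mcm2, Cdt1 and Rfc4 of replication genes. The mitosis median is that of Ccna2, so these medians cannot be compared as measured sizes.

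Those 6 were Cdc20 (4.22-fold), Ccnb2 (at least 3.22-fold), Ccna2 (3.1-fold), Cdk1 (at least 3.01-fold), Mki67 (2.85-fold) and Nusap1 (2.34-fold). For Cdc20 and Ccna2 the 2-fold difference rests on the brightest probe set, since their second brightest gave log2 differences of 0.32 and at least 0.31. Nusap1 read 91.1, 98.5, 213 and 232, so both ileum arrays were above both colon arrays. For Ccna2, Ccnb2, Cdk1, Mki67 and Cdc20 too, the ileum arrays did not overlap with the colon arrays. These genes were picked for a high wild-type ileum over wild-type colon, which partly fixes that order. The share of all genes with that order was not computed, so it is no result about these genes. Aurkb was the gene that was at least 2-fold lower in wild-type ileum, by a probe set of a type that can match several transcripts. Among replication genes, regional differences in wild type were 0.96 for Rrm1, 0.87 for Mcm6, at least 0.75 for Uhrf1 and 0.76 for Mcm2. By its second probe set, Mcm2 was higher by at least 0.04.

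In germ-free mice the regional difference held for mitosis genes and was near 0 for replication genes. With no floor, 28 of 43 genes were higher in ileum, against 52.8% of all genes. For mitosis this was 13 of 15 genes with a median log2 difference of 0.75, and for replication 11 of 23 genes with a median of -0.03. With the floor, 26 of 37 measured genes were higher (53.2%), 12 at least 1.5-fold (17.2%) and 5 at least 2-fold (7.37%). At least 1.5-fold lower was 1 gene, Cdc6 (13.4%), and 0 were at least 2-fold lower (5.88%). The 5 were Nusap1 at 2.35-fold, Ccna2 at 2.19-fold, Ccnb2 at 2.14-fold, Cdc20 at 2.03-fold and Fen1, the only replication gene among them, at 2.14-fold. The Fen1 value rests on a probe set that can match several transcripts, its other being below the floor. By their second brightest probe sets, Ccna2 and Cdc20 were at 0.01 and 0.74 log2. The SD of a single probe set was 0.40 log2 in this comparison. With the values as deposited, 17 of 36 measured members were higher in ileum and their median was -0.03, with 0.47 for mitosis and -0.20 for replication genes. With the second brightest probe set the median of 6 mitosis genes was 0.00. The difference between mitosis and replication genes was not tested. Crypt stem and progenitor markers had regional medians of 0.09 in wild type and 0.01 in germ-free mice. In each, 5 of 10 measured were higher in ileum, against 49.2% and 53.2% of all measured genes. Single markers went far both ways, from -1.83 to at least 4.78 in wild type and from -2.25 to at least 3.95 in germ-free mice.

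**Figure D4:**
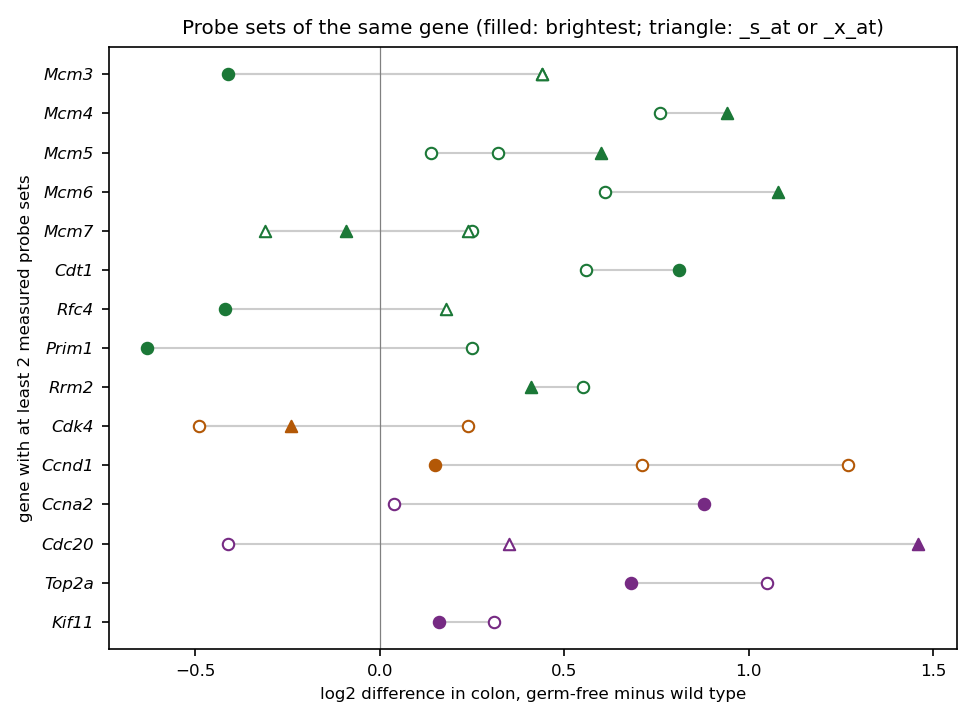
Germ-free minus wild-type log2 difference in colon for each measured probe set of the 15 genes with at least 2 of them; filled marks are the brightest probe set of a gene, and triangles are probe sets that can match several transcripts. For 9 genes all marks lie right of 0, and for 6 they lie on both sides, with Cdc20 reaching from -0.41 to 1.46.

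The measured probe sets of a gene were also set side by side. In colon, 15 genes had at least 2 of them. For 9 (against 27.7% of 4978 such genes in all) every probe set was higher in germ-free colon: Mcm4, Mcm5, Mcm6, Cdt1, Rrm2, Ccnd1, Ccna2, Top2a and Kif11. For 6 they were mixed, namely Mcm3, Mcm7, Rfc4, Prim1, Cdk4 and Cdc20, and for 0 were all of them lower, against 22.5% of all such genes. Mcm4 was 0.94 and 0.76 higher, Top2a 0.68 and 1.05, and Ccna2 0.88 and at least 0.04. The smallest of these differences, 0.04 for Ccna2 and 0.14 for Mcm5, are lower limits, their wild-type colon being under the floor. They stand below the SD of 0.36, which came from probe sets above the floor on both arrays. In ileum, 10 of 15 genes had all probe sets in 1 direction, where 42.4% of all genes had. Higher in germ-free mice were Mcm5, Rfc4, Top2a and Cdc20, the last by 0.40 and by a value that rounds to 0.00. Lower were Ccnd1, Cdk4, Kif11, Mcm2, Mcm4 and Prim1. Of all genes, 23.2% had every probe set higher and 19.2% every probe set lower. Between regions, 10 of 14 genes had all probe sets higher in wild-type ileum, against 30.6% of all genes, and 4 were mixed. In germ-free mice 6 of 16 had 1 direction, against 57.6%, and 10 were mixed.

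The helicase, reductase and cyclin genes above are part of larger pathways, and further genes of these were read from lists made for the same purpose. Of 31 measured other replication genes, 23 were higher in germ-free colon with a median log2 difference of 0.20, beside 48.6% of all measured genes. At least 1.5-fold higher were 4 (6.19% of all genes) and at least 1.5-fold lower were 3 (10.8%). The 3 lower ones were Rfc2 of the clamp loader at 1.89-fold, Chaf1b of chromatin assembly at 1.54-fold and Pole2 of DNA polymerase epsilon at 1.51-fold. Mcm10, which helps to start the helicase, read 63.2, 180, 197 and 211, a 2.84-fold difference in colon. Cdc7, the kinase that activates the loaded helicase, read 52.3, 155, 49.6 and 69.4, at least 2.49-fold higher in germ-free colon. In ileum, 18 of 30 were higher, beside 54.8% of all genes, with a median of 0.03.

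Of 32 measured other mitosis genes, 23 were higher in germ-free colon (48.6% of all measured genes) with a median of 0.24. At least 1.5-fold higher were 10, 5 of them at least 2-fold, and at least 1.5-fold lower were 2, against the 6.19%, 1.29% and 10.8% of all measured genes given above. The 2 lower ones were Hmmr, a spindle and hyaluronan-binding protein, at 1.69-fold, and Foxm1, a transcription factor of mitotic genes, at 1.58-fold. Kif23, a motor of the central spindle in cytokinesis, read 81.5, 202, 373 and 309, a 2.48-fold difference. Kif22, a chromosome-arm motor, read 82, 192, 204 and 299, a 2.34-fold difference. The kinase gene Melk read 55.8, 156, 191 and 231, and Tacc3, which stabilises spindle fibres, read 61, 144, 158 and 178, at least 2.5-fold and at least 2.3-fold higher. In each of these 4 genes wild-type colon was the lowest array. They were named for being over 2-fold higher in germ-free than in wild-type colon, so a low wild-type colon goes with their choice. Between regions, 26 of 33 were higher in wild-type ileum (49.2% of all measured genes) with a median of 0.52. In germ-free ileum 29 of 33 were higher (53.2%), with a median of 0.45.

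Of 18 other G1 to S genes, 12 were higher in germ-free colon (48.6% of all measured genes) with a median of 0.20. At least 1.5-fold higher were 5 (6.19%), and 2 were at least 1.5-fold lower, near the share of all genes (10.8%). Ccnd2, a D-type cyclin, read 186, 404, 1141 and 1179, a 2.17-fold colon difference, and the E2F family gene E2f3 read 466, 939, 768 and 1034, a 2.01-fold difference. E2f5, of the repressor branch of that family, read 1493, 598, 1055 and 1443, which is 2.49-fold lower in germ-free colon. Of 10 measured cell cycle inhibitors, 6 were higher in germ-free colon (48.6% of all measured genes) with a median of 0.10. None was 1.5-fold higher (6.19%) and 1 was at least 1.5-fold lower (10.8%), Gadd45a, a stress-response gene that read 259, 146, 336 and 289. In ileum, 3 were higher in germ-free mice (54.8%) with a median of -0.07. Between regions, 2 of 10 were higher in wild-type ileum and 2 of 10 in germ-free ileum, against 49.2% and 53.2% of all genes. The medians were -0.39 and -0.42. The 2 in germ-free mice were at least 1.5-fold higher (17.2% of all measured genes), Gadd45a at 1.98-fold.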

How the data were processed

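RNA of laser-captured epithelium was amplified in 2 rounds and read on 1 Affymetrix mouse array per group, per the labels. The deposited values are linear intensities of 45101 probe sets, which the authors made with dCHIP 2004, per the series' design text; for its normalization options, the sources used here give nothing. Probe set symbols came from the platform annotation: 34945 had 1 symbol, 932 several and 9160 none, and 64 were controls. The medians of the brighter 50% of log2 values differed by 0.32 between arrays, above the limit of 0.25, so log2 values were quantile-normalized over probe sets other than controls. Values below the pooled median, 62.4, were set to it. Differences are between 2 arrays and have no test. All genes named are the 44 members, pathway genes past 2-fold in a germ-free comparison (at most 4 per list), and, chosen after their values were seen, the pathway genes at least 1.5-fold lower in colon that are named and a few markers. The members and lists were chosen with earlier results of these data known. Gene and promoter positions are from RefSeq on GRCm38.p6. Python 3.11.15, numpy 2.4.6 and pandas 2.3.3 were used. The 8 alternatives tried concern scaling, the floor and the choice of probe set.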

Additional observations from a re-analysis of the deposited data

Results flagged for a closer look

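Ccne1 moved in opposite directions in the 2 regions: it was lower in germ-free than in wild-type colon and higher in germ-free than in wild-type ileum. Its colon difference minus its ileum difference was -1.75 log2 or lower, since its germ-free colon value was under the floor. The difference between regions was not tested, with 1 array per group. The value rests on 1 probe set, of a type that can match several transcripts, and the other probe set of Ccne1 was below the floor on all arrays.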

How the results depend on the processing

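No paired analysis was possible because each group was 1 array. Over the 8 alternatives, the colon median of all members ran from 0.19 to 0.46, of replication genes from 0.19 to 0.66 and of mitosis genes from 0.10 to 0.62, all above 0. The medians over wild-type regions and over the colon minus ileum differences were above 0 as well, for all members, replication and mitosis genes. Scaling moved the median of all genes in colon to 0.09 as deposited and -0.16 with median scaling, where that of the members was 0.46 and 0.19; between germ-free regions it moved to -0.11 and 0.15, against -0.03 and 0.25. As deposited, the G1 to S median was 0.01 in colon and -0.01 between germ-free regions, where 17 of 36 members were higher in ileum, 7 of them at least 1.5-fold.

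With the floor at the 75th percentile fewer genes were measured. Members higher were then 10 of 12 in colon, 9 of 15 in ileum, 12 of 14 between wild-type and 12 of 15 between germ-free regions, and 9 of 12 for the colon minus ileum difference. At least 1.5-fold higher were 2, 0, 5, 4 and 2. The G1 to S median, of 1 gene, was 0.15 in colon and 0.58 for the colon minus ileum difference, which for Cdc20 was -0.09.

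With the mean of probe sets, members at least 1.5-fold higher numbered 8 of 26 in colon, 0 of 27 in ileum, 9 of 28 between wild-type and 6 of 27 between germ-free regions. Members higher were 9 of 27 in ileum and 16 of 27 between germ-free regions, and the G1 to S colon minus ileum median was 0.62.

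Leaving out probe sets that may match more than 1 transcript, Cdc20 was at -0.41 in colon and -0.42 for colon minus ileum. The G1 to S median was 0.15 in colon, 0.71 between wild-type regions and 0.58 for colon minus ileum.

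With the second brightest probe set, only 15 to 18 members could be measured. Mitosis medians were 0.10 in colon, 0.31 between wild-type and 0.00 between germ-free regions. Those of 0.10 and 0.31 are lower limits, the values of Bub1b and Ccna2, whose wild-type colon was under the floor. The replication median was -0.19 in ileum, and all members had -0.08 between germ-free regions. G1 to S medians were 0.48 in colon, 0.78 and -0.10 between wild-type and germ-free regions, and 0.88 for colon minus ileum. Members higher were 6 of 17 in ileum, 14 of 15 and 6 of 18 between regions and 13 of 15 for colon minus ileum. At least 1.5-fold higher were 4 in colon, 0 in ileum, 4 and 1 between regions and 7 for colon minus ileum. Prim1 was at 0.25 and Cdc20 at -0.41 in colon, and Cdc45 at -0.07 or lower between germ-free regions. For colon minus ileum, Mcm3 was at 0.71 or higher and Cdc20 at -0.42. The cause of these shifts was not tested. Weak signal limits the low members: 18 of the 43 were at or below the floor on at least 1 array.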
